A study of Mus musculus with 400 samples.

Results

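Neurons of the dorsal root ganglion that express the peptide CGRP were divided by their level of Nefh, the gene for the heavy neurofilament subunit, and the Nefh-high cells were compared with the Nefh-low cells of the same mice. The cells were selected on their own measured values, in CPM, the counts of a gene scaled to a fixed total per cell. A CGRP cell had at least 500 detected genes, at least 2000 CPM of Calca, under 50 CPM of Mrgpra3 and under 200 CPM of Mrgprd, the receptor genes of itch neurons and of non-peptidergic neurons. Among 371 kept cells, 63 of the cells that met this rule fell into the classes compared: 15 held at least 500 CPM of Nefh (Nefh-high) and 48 held under 100 CPM (Nefh-low). A further 40 CGRP cells lay between (Nefh-intermediate). Calca, Nefh, Mrgpra3 and Mrgprd made the selection, are given only as a description, and were left out of every test. Thy1, S100b and Scn8a were taken as markers of the class with earlier results of these data known.

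All cells came from the cervical ganglia (C1-C8) of 6 naive mice of the line Nav1.8-Cre R26CAG-floxStop-tdTomato, 6 to 12 weeks old. In this line a Cre recombinase under the control of the sodium channel gene Scn10a (Nav1.8) switches on the red protein tdTomato, and tdTomato-positive cells were sorted one by one and sequenced as separate libraries. The sort therefore holds cells whose lineage has used the Scn10a promoter, and neurons that never used it were not collected. The mice are labelled Blue and Red (run 1), Control (run 2), Control1 and Control2 (run 3) and Control6 (run 4). No mouse was treated, so Control is here only a name.

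CGRP is a vasodilator peptide released by many pain-sensing neurons, and its precursor is made from Calca, which also encodes calcitonin. Most CGRP neurons are thin, unmyelinated C-fibre neurons that also carry substance P (Tac1) and the heat receptor Trpv1. A smaller group has thinly myelinated A-delta axons, fast conduction and much neurofilament, since neurofilaments widen the axon. Nefh is widely used to mark neurons with myelinated axons.

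The depth of the cells is given in recovered counts, that is, deposited values divided by the value of 1 count in the cell. Kept cells held between 909 and 324939 counts (median 30309). The 7 pan-neuronal markers, Snap25 among them, added up to a median of 9530 CPM in Nefh-high and 7171 CPM in Nefh-low cells. Macrophage, lymphocyte and endothelial markers had a median sum of 0 in both classes. In the 2 mice compared first, markers of large neurofilament neurons (7 genes, Pvalb among them) held 0 called genes of 4 tested by limma, with 1 at an unadjusted p under 0.05 and 0 by edgeR or DESeq2. These 7 genes summed to a median of 148 CPM in Nefh-high and 27.5 CPM in Nefh-low cells, pooled over mice. Within mice the median sums were 88.4 against 0 CPM in Blue, and in the opposite order, 138 against 150 CPM, in Control2.

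Promoter sequences are shown for 3 genes that stood higher and 1 that stood lower in Nefh-high cells, to give the text at the start of the genes that the comparison turns on. Each is the stretch of 250 bases before the start of the gene in RefSeq on GRCm38, 5′ to 3′ on the strand of the gene. Capitals mark every match, on either strand, to one of 9 motifs: the CAAT box, spelled CCAAT; the E-box, spelled CACGTG; the short form of the cyclic AMP response element, spelled TGACG, which lies within its full form TGACGTCA; the GC box, spelled GGGCGG; the TATA box, spelled TATAAA; the core of RUNX sites, spelled TGTGGT; and the core of sites for oestrogen-related receptors, spelled AAGGTCA, which lies within its longer form TCAAGGTCA.
S100b, chr10:76253586-76253835, plus strand: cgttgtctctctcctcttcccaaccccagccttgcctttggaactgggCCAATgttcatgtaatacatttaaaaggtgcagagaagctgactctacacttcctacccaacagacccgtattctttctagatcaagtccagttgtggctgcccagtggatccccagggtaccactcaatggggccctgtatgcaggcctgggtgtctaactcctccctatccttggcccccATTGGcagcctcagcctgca
Scn8a, upstream start, chr15:100870395-100870644, plus strand: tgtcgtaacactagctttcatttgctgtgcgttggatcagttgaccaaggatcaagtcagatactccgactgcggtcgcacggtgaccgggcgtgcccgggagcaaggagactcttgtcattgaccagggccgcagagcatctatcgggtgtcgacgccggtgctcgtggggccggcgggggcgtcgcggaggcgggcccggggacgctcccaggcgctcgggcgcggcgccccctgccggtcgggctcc
Scn8a, downstream start, chr15:100936021-100936270, plus strand: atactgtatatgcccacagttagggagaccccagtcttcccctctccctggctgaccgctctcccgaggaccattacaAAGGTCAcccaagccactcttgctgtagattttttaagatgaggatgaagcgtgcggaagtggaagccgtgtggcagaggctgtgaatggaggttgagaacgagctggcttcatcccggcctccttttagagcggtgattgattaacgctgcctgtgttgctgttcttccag
Trappc3l, chr10:34037347-34037596, plus strand: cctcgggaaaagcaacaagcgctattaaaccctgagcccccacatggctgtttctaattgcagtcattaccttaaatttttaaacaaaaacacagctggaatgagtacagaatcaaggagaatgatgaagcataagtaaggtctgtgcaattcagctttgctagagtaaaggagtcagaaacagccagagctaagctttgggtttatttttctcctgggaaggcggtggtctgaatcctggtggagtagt
Tac1, chr6:7554811-7555060, plus strand: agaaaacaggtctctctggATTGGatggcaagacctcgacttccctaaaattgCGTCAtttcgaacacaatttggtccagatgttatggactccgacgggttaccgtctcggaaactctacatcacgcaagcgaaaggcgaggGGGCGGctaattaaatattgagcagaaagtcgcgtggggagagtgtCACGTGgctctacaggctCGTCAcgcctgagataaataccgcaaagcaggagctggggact
The S100b window held CCAAT on both strands, a motif found in 33.8% of 32851 promoter windows of this length. The window of the downstream Scn8a start held AAGGTCA, found in 4.08% of windows, and that of the upstream start held none of the motifs. No motif was found in the window of Trappc3l. The Tac1 window held the CAAT box, the E-box (in 6.02% of windows), the short cyclic AMP response element (17.8%) and the GC box (32.7%). TGTGGT, the core to which the RUNX factors bind, occurred in 14% of windows and in none of the 5 shown.

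The share of Nefh-high cells differed widely between mice. They made up 14.6% of all CGRP cells (15 cells, exact Clopper-Pearson 95% interval 8.39% to 22.9%, which covers counting error only). In the mice of run 1 the share was 5.41% in Blue (2 of 37, 0.661% to 18.2%) and 2.44% in Red (1 of 41, 0.0617% to 12.9%). It was 66.7% in Control (6 of 9, 29.9% to 92.5%), 50% in Control2 (3 of 6, 11.8% to 88.2%), 42.9% in Control6 (3 of 7, 9.90% to 81.6%) and 0 of 3 in Control1. Nefh-low cells numbered 23 in Blue, 20 in Red, 3 in Control2 and 1 each in Control and Control1, and there were 0 in Control6. Run 1 and run 3 held 2 mice each, whereas in Control (run 2) and Control6 (run 4) mouse and run cannot be told apart.

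The selected levels were as follows. Nefh (chr11:4938754-4948064, minus strand) averaged 834 CPM in the Nefh-high cells of Blue, 742 in the single cell of Red, 1002 in Control, 1231 in Control2 and 1290 in Control6. The Nefh-low means lay between 31.6 and 45.4 CPM in Blue, Red, Control and Control2, and 23 of the 48 Nefh-low cells were listed at 0. Just outside and just inside the upper limit lay cells at 476 and 519 CPM, and at the lower limit cells at 96.9 and 100.8 CPM. Calca (chr7:114631478-114636357, minus strand) averaged 8103 CPM in Nefh-high against 12144 CPM in Nefh-low cells of Blue, and 9023 against 5231 CPM in Control2.

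Both classes were compared within mice, by limma on log2(CPM + 5) of the class means with mouse as a block. At least 3 cells of both classes were found in 1 mouse only, so the minimum of 2 cells foreseen for that case applied, and Blue (2 Nefh-high, 23 Nefh-low cells) and Control2 (3 and 3) entered. Of 9091 genes tested, 288 passed an adjusted p of 0.05 (3.17%), 184 of them higher in Nefh-high cells (2.02% of genes tested) and the rest lower (1.14%). With 2 mice, 1 residual degree of freedom is left for a gene, and its standard error (SE) came from the spread pooled over all genes. A gene whose 2 mice differ from each other can therefore pass. Each such result is set beside a second fit, chosen after the cells per mouse were seen, in which 1 cell per class was enough and 4 mice entered (Blue, Control2, Control and Red). In that fit the Nefh-low value of Control and the Nefh-high value of Red are each 1 cell. It called 317 of 9206 genes (3.44%), among them 194 of the 288, of which 68 were lower. Of the 288 genes, 231 moved the same way in each of the 4 mice. Blue and Control2 made the 288 calls and enter both fits, so neither count is independent replication. Only Control and Red are added, each with 1 cell in 1 of the classes, and the same share over all genes tested is not given. In what follows, rose and fell are used of genes that passed with 2 mice, and the adjusted p of the 4-mouse fit is given beside them. Counts of called genes in a list stand beside 2.02% higher and 1.14% lower over all genes tested. No list was tested as a set, and a count of 1 gene says nothing about its list.

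Nefh-high cells held more recovered counts and more detected genes than Nefh-low cells, for a cause that was not tested. They held a median of 58095 recovered counts (8117 to 117605) and 8519 genes, against 20314 counts (6615 to 57021) and 5750 genes in Nefh-low cells. The 3 Nefh-low cells of Control2 held only 6615 to 17096 counts each, so a value of 0 there sets a weak upper limit. The class medians of counts differed by 1.68 on the log2 scale (SD 0.45, n = 4 mice) and were higher in 4 of 4 mice, with an exact two-sided sign-flip p of 0.125, the smallest that 4 mice allow. When every cell was thinned to 5000 counts, 279 of 285 called genes with a value kept their direction, and the calls numbered 25 higher and 15 lower genes. Thy1, S100b, Trappc3l, Nefm, Nefl, Ngfr, Atp1b1, Tac1, Adcyap1, Cd44 and Syt4 were among the 25 genes called both before and after thinning. Taking the mean of log2 values over cells in place of the log2 of the mean gave 275 higher and 52 lower genes, and moved the median of all genes to 0.67.

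**Figure D1:**
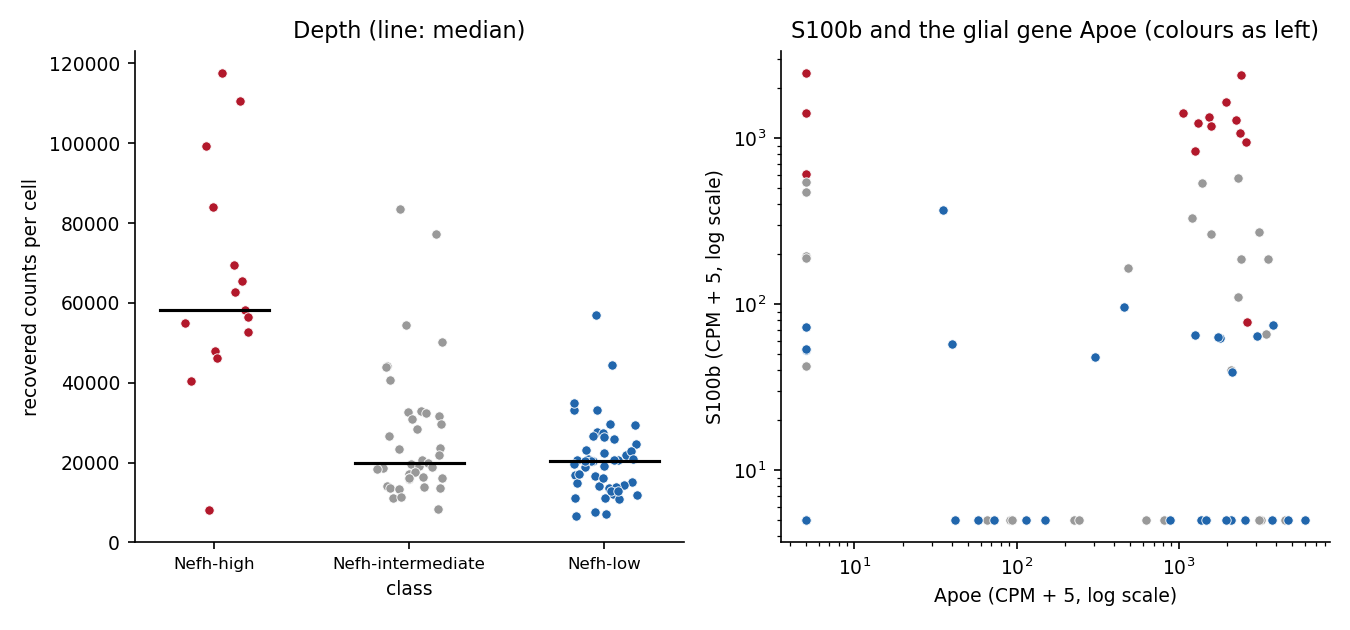
Left, recovered counts of each CGRP cell by class, with the median as a line (58095 in Nefh-high, 19817 in Nefh-intermediate and 20314 in Nefh-low cells). Right, S100b against the glial gene Apoe in the same cells, both as CPM + 5 on log axes; 3 Nefh-high cells with Apoe at 0 lie above 600 CPM of S100b.

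RNA of glial cells was present in both classes. The 12 satellite glia markers summed to a median of 2819 CPM in Nefh-high cells (170 to 4850) and 407 CPM in Nefh-low cells (0 to 8338). In Blue the median sums were 312 and 333 CPM, and in Control2 4054 and 3157 CPM. Of 10 tested genes of this list, 0 were called higher and 2 lower, Apoe and Sparc, and 0 were called with 4 mice. Sparc differed by -2.11 (adjusted p 0.0234, and 0.654 with 4 mice). Apoe averaged 0 against 640 CPM in Blue and 2475 against 1727 CPM in Control2. Apoe passed as lower although the mice moved in opposite directions, and its adjusted p with 4 mice was 0.427. Apoe, Fabp7 and Sox10 were all at 0 in 4 of 15 Nefh-high cells and in 22 of 48 Nefh-low cells. The Schwann cell list summed to 2670 against 987 CPM at the median, and its called gene was Ngfr, which sensory neurons also express. The part of glial RNA in the other results was not tested, except where a value is given.

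Genes of large, myelinated sensory neurons stood higher in Nefh-high cells. Of 18 such genes, 16 passed the level filter, 8 rose and 0 fell, with a median difference of 2.28 (log2) against -0.01 over all genes. The 4-mouse fit called 9 of them higher. This list was drawn up with earlier results of these data known, and its count is a description.

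Thy1 (chr9:44043384-44048579, plus strand) encodes a glycolipid-anchored surface protein of projection neurons and was the gene with the largest difference. It averaged 2098 CPM in Nefh-high cells of Blue, 1957 in Control2, 1432 in Control, 2192 in Red and 1089 in Control6. In Nefh-low cells it was listed at 0 in Blue, Control2 and Control and averaged 4.06 CPM in Red. The class means did not overlap over mice, and the share of all genes tested for which this holds is not given. The difference was 8.67 ± 0.56 (SE, 2 mice; adjusted p 4e-50, and 2.32e-08 with 4 mice). Against a floor of 3 counts in the 491929 counts of the Nefh-low cells of both mice, the mean was at least 332-fold higher. Most of these pooled counts were from Blue, so the bound does not hold for Control2 alone. Among single cells, 14 of 15 Nefh-high and 2 of 48 Nefh-low cells held a count of Thy1. In 90 reference cells with at least 200 CPM of Mrgprd and under 500 CPM of Calca, 3 did, at a median of 45681 counts per cell. After thinning to 5000 counts, 14 of 15 Nefh-high and 0 of 48 Nefh-low cells held one.

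S100b (chr10:76253853-76261159, plus strand) encodes a calcium-binding protein of glia and of large sensory neurons. Its means in Nefh-high cells were 1011 CPM in Blue, 1468 in Control2, 1163 in Control, 831 in Red and 1213 in Control6. The Nefh-low means were 30.1, 19.4, 33.9 and 10.1 CPM in Blue, Control2, Control and Red. Every Nefh-high mean was above every Nefh-low mean. The difference was 5.39 ± 0.44 (SE; adjusted p 2.03e-30, and 3.57e-07 with 4 mice). Both Nefh-high cells of Blue held S100b (603 and 1419 CPM) with Apoe, Fabp7 and Sox10 at 0, and so did 1 cell of Control6 at 2458 CPM.

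Scn8a (chr15:100869858-101045938, plus strand) encodes Nav1.6, the main sodium channel of nodes of Ranvier. It averaged 244 CPM in Blue, 179 in Control2, 220 in Control, 194 in Red and 205 in Control6 in Nefh-high cells. Nefh-low cells averaged 2.88 CPM in Blue, 0 in Control2 and Control and 10.9 in Red. Again every Nefh-high mean lay above every Nefh-low mean. Single cells overlapped, with 1 Nefh-high cell at 0 and Nefh-low cells at up to 90 CPM. The difference was 5.09 ± 0.91 (SE; adjusted p 3.44e-06, and 0.00056 with 4 mice). At equal depth 7 of 15 Nefh-high and 2 of 48 Nefh-low cells held a count, and the adjusted p of the thinned data was 0.53.

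The neurofilament genes Nefm and Nefl rose as well. Nefh made the classes, so the size of its own difference cannot be set beside theirs. Nefm, the medium subunit, averaged 1413 against 443 CPM in Blue, 1405 against 513 in Control2, 1577 against 288 in Control and 1396 against 429 in Red. Nefl, the light subunit, averaged 1298 against 500 CPM in Blue and 1514 against 622 CPM in Control2. The differences were 1.55 ± 0.31 for Nefm (adjusted p 7.53e-05, 0.000195 with 4 mice) and 1.32 ± 0.31 for Nefl (adjusted p 0.00141, 0.00034 with 4 mice). Both were counted in all 48 Nefh-low cells. Nefm and Nefl share annotated exonic sequence, so reads could be split between them. Prph, the peripherin of thin fibres, averaged 1272 against 2338 CPM in Blue and 1247 against 1504 CPM in Control2. It did not pass with 2 mice (adjusted p 0.42) and passed with 4 (-0.87 ± 0.18, adjusted p 0.0152), a call lost without Blue, Control or Red. Of 13 tested genes of filaments and axon cytoskeleton, 3 rose (Nefm, Nefl and the tubulin Tubb4a) and 1 fell, the filament gene Vim (-1.60, adjusted p 0.00727, and 0.0968 with 4 mice). Tubb4a passed with 4 mice at an adjusted p of 0.0418, lost without Blue, Control2 or Red.

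**Figure D2:**
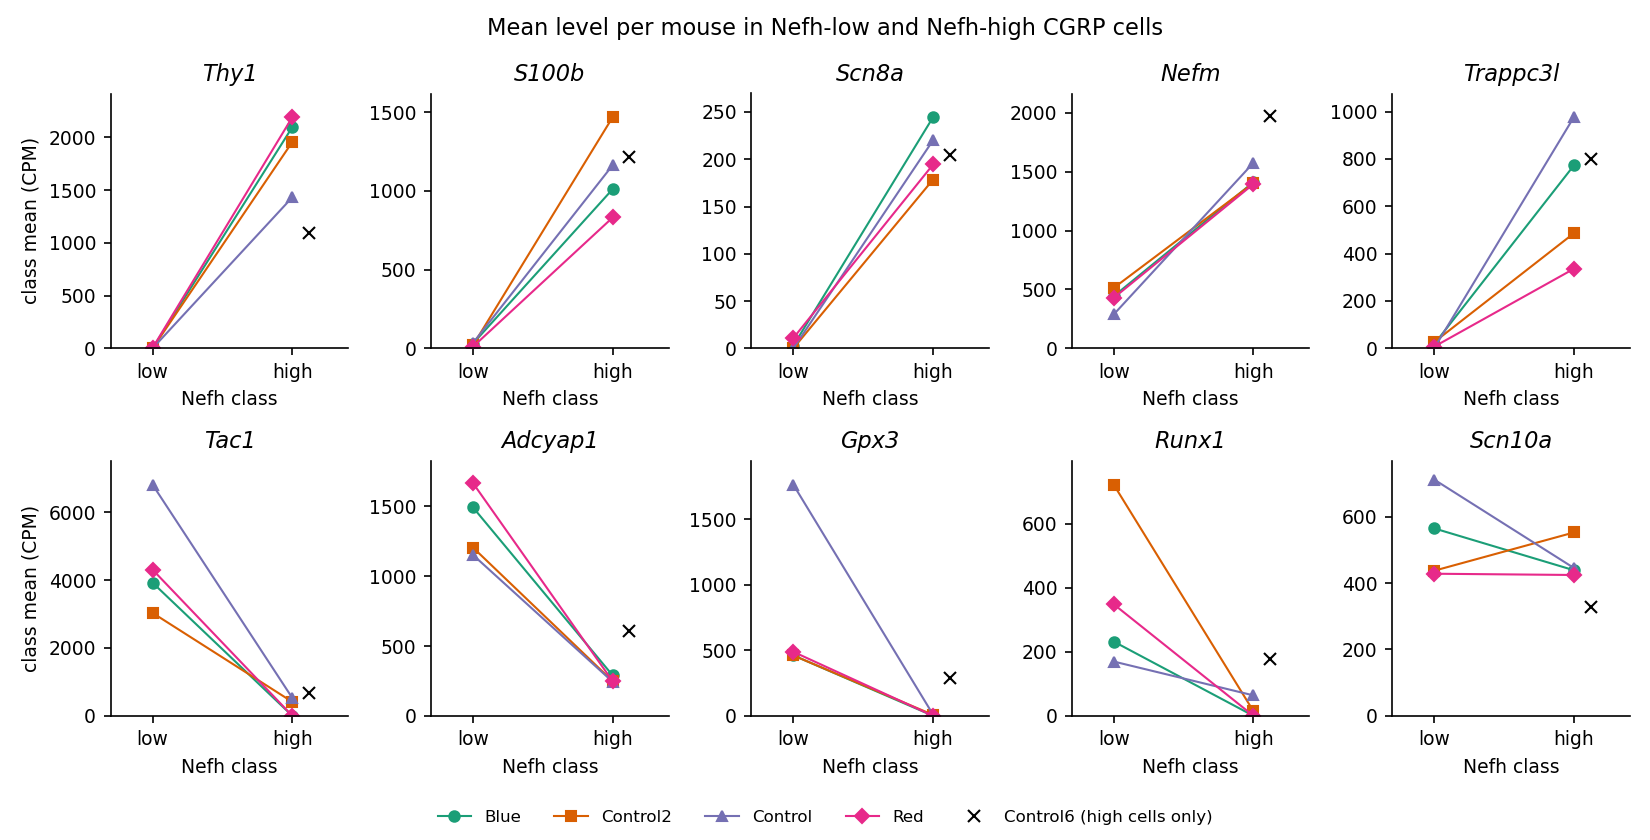
Class means in CPM of 10 genes, with 1 line for each of the 4 mice that held cells of both classes (low, Nefh-low; high, Nefh-high) and a cross for Control6, which held Nefh-high cells only. The lines of Thy1, S100b, Scn8a, Nefm and Trappc3l go up and those of Tac1, Adcyap1, Gpx3 and Runx1 go down in every mouse, while those of Scn10a run both ways.

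Genes of the node of Ranvier and the axon initial segment were measured next. Of 9 tested, 2 rose and 0 fell (median 1.62), and 4 were called higher with 4 mice. Cntnap1, the axonal partner of the paranodal junction, averaged 220 against 18.2 CPM in Blue and 82.8 against 0 in Control2 (3.71 ± 0.88, adjusted p 0.00186, 0.0032 with 4 mice). Nfasc, a cell adhesion protein that gathers sodium channels, averaged 102.02 against 16.7 CPM in Blue and 118.9 against 0 in Control2 (3.47 ± 0.94, adjusted p 0.0105, 0.0293 with 4 mice). The 4-mouse call of Nfasc was lost without Blue, Control2 or Red. Cntn1, the contactin of the same junction, averaged 418 against 7.10 CPM in Blue and 288 against 76.1 CPM in Control2 (3.49 ± 0.55, adjusted p 5.66e-08, 0.000744 with 4 mice).

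Among 10 tested sodium channel genes, 4 rose and 0 fell, the same number as with 4 mice. Besides Scn8a these included the auxiliary subunits Scn4b and Scn2b. Scn4b, whose product speeds the recovery of channels for repeated firing, averaged 100.7 CPM in Blue, 113.9 in Control2, 306 in Control, 88.4 in Red and 70.2 in Control6. No count of Scn4b was found in 48 Nefh-low cells, which allows a share of up to 6.25% of cells with a count, and 13 of 15 Nefh-high cells held one. Scn2b averaged 297 against 65.8 CPM in Blue and 289 against 0 CPM in Control2 (3.99 ± 0.64, adjusted p 8.93e-08, 0.00189 with 4 mice).

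The nociceptor sodium channels did not pass. Scn10a (Nav1.8), the gene that drives the reporter, averaged 439 against 565 CPM in Blue, 552 against 437 in Control2, 445 against 712 in Control and 424 against 428 in Red. Its difference was -0.01 ± 0.34 (adjusted p 0.993, and 0.747 with 4 mice), and every cell of both classes held a count. Scn9a (Nav1.7) differed by 0.47 ± 0.33 (adjusted p 0.628) and Scn11a (Nav1.9) by -0.75 ± 0.39 (adjusted p 0.445). Scn1a (Nav1.1) was listed at 0 in both classes of Blue and averaged 56.1 against 0 CPM in Control2 (1.81 ± 1.70, adjusted p 0.748). It was counted in 8 of 15 Nefh-high cells and 1 of 48 Nefh-low cells before thinning, and in 4 and 0 after it.

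Of 32 tested potassium and HCN channel genes, 4 rose and 1 fell (median 0.44). Kcna1, a low-threshold channel of myelinated axons, averaged 114.3 against 7.97 CPM in Blue and 297 against 0 CPM in Control2 (4.56 ± 0.88, adjusted p 2.71e-05, 0.00406 with 4 mice). Kcna2, its partner subunit, averaged 324 against 117.9 and 381 against 146 CPM (1.39, adjusted p 0.0338, 0.00227 with 4 mice). Kcnab1, an auxiliary subunit of these channels, averaged 176 against 10.3 and 122.9 against 0 CPM (4.12, adjusted p 0.000519, 0.00592 with 4 mice). Hcn2, a pacemaker channel, averaged 178 against 26.4 and 58.5 against 0 CPM (3.11, adjusted p 0.0239, 0.0236 with 4 mice), and that 4-mouse call was lost without Blue, Control2 or Red. The leak channel Kcnk3 fell (-3.39, adjusted p 0.00518), but its adjusted p with 4 mice was 0.332. Kcnc1, a fast potassium channel, averaged 63.9 against 86.7 CPM in Blue and 110 against 19.4 CPM in Control2 and did not pass (adjusted p 0.667). None of 11 tested calcium channel genes passed with 2 mice by limma, with 3 at an unadjusted p under 0.05 and 0 by edgeR or DESeq2. With 4 mice, Cacna2d1 (-0.87, adjusted p 0.0446) and Cacna2d2 (-1.40, adjusted p 0.0376) passed as lower. The call of Cacna2d1 was lost without Blue, Control or Red, and that of Cacna2d2 without Blue, Control2 or Red.

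Markers known from A-delta CGRP neurons were partly present. Of 9 genes, 7 were tested, 4 rose and 0 fell (median 1.97), and 3 were called with 4 mice. Trappc3l (chr10:34037597-34109815, plus strand), which encodes a protein related to a vesicle-tethering factor, averaged 772 against 17.2 CPM in Blue, 486 against 26 in Control2, 976 against 0 in Control and 336 against 6.92 in Red. Its difference was 4.56 ± 0.51 (adjusted p 3.98e-16, 7.78e-05 with 4 mice). Fam19a1, a secreted chemokine-like protein, averaged 221 against 2.59 CPM in Blue and 127.98 against 0 CPM in Control2 (4.82 ± 0.96, adjusted p 6.42e-05, 0.000368 with 4 mice). Npy2r, the Y2 receptor, averaged 121.1 against 27 CPM and 82.2 against 0 CPM (3.05, adjusted p 0.0296, 0.0355 with 4 mice), and its 4-mouse call was lost without Blue, Control2 or Red. Bmpr1b, a BMP receptor, stayed under the level filter, with a count in 12 of 15 Nefh-high and 0 of 48 Nefh-low cells before thinning and in 2 and 0 after it. Smr2 was counted in 1 Nefh-high cell and 1 Nefh-low cell. The receptor gene Kit was counted in 14 of 15 and 44 of 48 cells, and averaged 1290 against 343 CPM in Blue but 286 against 526 CPM in Control2 (adjusted p 0.604).

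Most markers of C-fibre peptidergic neurons moved the other way. Of 12 genes, 9 were tested, 0 rose and 7 fell, with a median of -2.93. The 4-mouse fit called 6 of them lower, the exception being Gal. Prkcq, of the same list, was higher without passing (2.94, and 2.24 with 4 mice). It was counted in 7 of 15 Nefh-high and 0 of 48 Nefh-low cells before thinning, and in 1 and 0 after it. Prkcq and Runx1 were each also counted in 89 of the 90 reference cells with Mrgprd, so neither is particular to peptidergic neurons.

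Tac1 (chr6:7554879-7565834, plus strand) encodes the precursor of substance P and showed the largest fall. In Nefh-low cells it averaged 3923 CPM in Blue, 3033 in Control2, 6812 in Control and 4307 in Red. In Nefh-high cells it was listed at 0 in Blue and Red and averaged 411 CPM in Control2, 526 in Control and 682 in Control6. All Nefh-high means lay below all Nefh-low means. Each Nefh-high mean above 0 came almost wholly from 1 cell (1233 CPM in Control2, 3124 in Control and 1972 in Control6), and the other 12 Nefh-high cells held 75.6 CPM or less. The log2 difference was -9.62 in Blue, -2.87 in Control2, -3.68 in Control and -9.75 in Red. Its mean over 4 mice was -6.48 ± 0.91 (SE; adjusted p 0.00144). With Blue and Control2 alone it was -6.24 ± 0.36, an SE that the spread between these mice exceeds.

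Adcyap1, the gene of the peptide PACAP, differed by similar amounts in the 4 mice, although single Nefh-high cells ranged from 0 to 1602 CPM. Adcyap1 averaged 289 against 1493 CPM in Blue, 247 against 1205 in Control2, 243 against 1152 in Control and 247 against 1667 in Red (-2.39 ± 0.18 with 4 mice, adjusted p 1.29e-05). Gal, the galanin gene, was listed at 0 in the Nefh-high cells of Blue, Control2 and Red and averaged 255, 212 and 304 CPM in their Nefh-low cells. In Control the order was opposite, 26.4 CPM against 0 in its single Nefh-low cell, and the adjusted p with 4 mice was 0.149. Cartpt, a further peptide gene, averaged 0 against 187 CPM in Blue and 57.7 against 119.6 in Control2 (-3.13, adjusted p 0.00235, 0.0236 with 4 mice). Calcb, which encodes the beta form of CGRP, averaged 332 against 587 CPM in Blue and 327 against 127.9 in Control2 and did not pass (0.25 ± 0.38, adjusted p 0.835). With 4 mice the direction turned, -0.56 ± 0.41 (adjusted p 0.58), with 3 of 4 mice lower, and in Blue and Red of run 1 Calcb passed as lower (-1.54, adjusted p 0.00939). It was counted in every cell of both classes.

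Trpv1 (chr11:73234292-73261242, plus strand), the receptor for heat and capsaicin, averaged 17.2 against 557 CPM in Blue, 106.04 against 251 in Control2, 85.5 against 542 in Control and 0 against 436 in Red. It fell by 2.93 on the log2 scale (SE 0.49, adjusted p 5.51e-07, and 0.00507 with 4 mice). All 48 Nefh-low cells and 7 of 15 Nefh-high cells held a count. Gfra3, the artemin receptor, averaged 34.4 against 218 CPM in Blue and 14.4 against 172 CPM in Control2 (-2.84 ± 0.64, adjusted p 0.000686, 0.000937 with 4 mice).

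Runx1 (chr16:92601466-92826149, minus strand) encodes a transcription factor that directs the development of C-fibre nociceptors. It averaged 0 against 232 CPM in Blue, 14.4 against 721 in Control2, 63.8 against 169 in Control and 0 against 348 in Red. Every Nefh-high mean of these mice was below every Nefh-low mean, although Control6 held 177 CPM in its Nefh-high cells. The difference was -5.40 ± 0.68 (adjusted p 2.04e-12, 0.00189 with 4 mice). Ret, the receptor of the GDNF family, fell as well, from 553 to 0 CPM in Blue and from 207 to 59.1 CPM in Control2 (-4.26 ± 0.62, adjusted p 2.73e-09, 0.00515 with 4 mice).

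**Figure D3:**
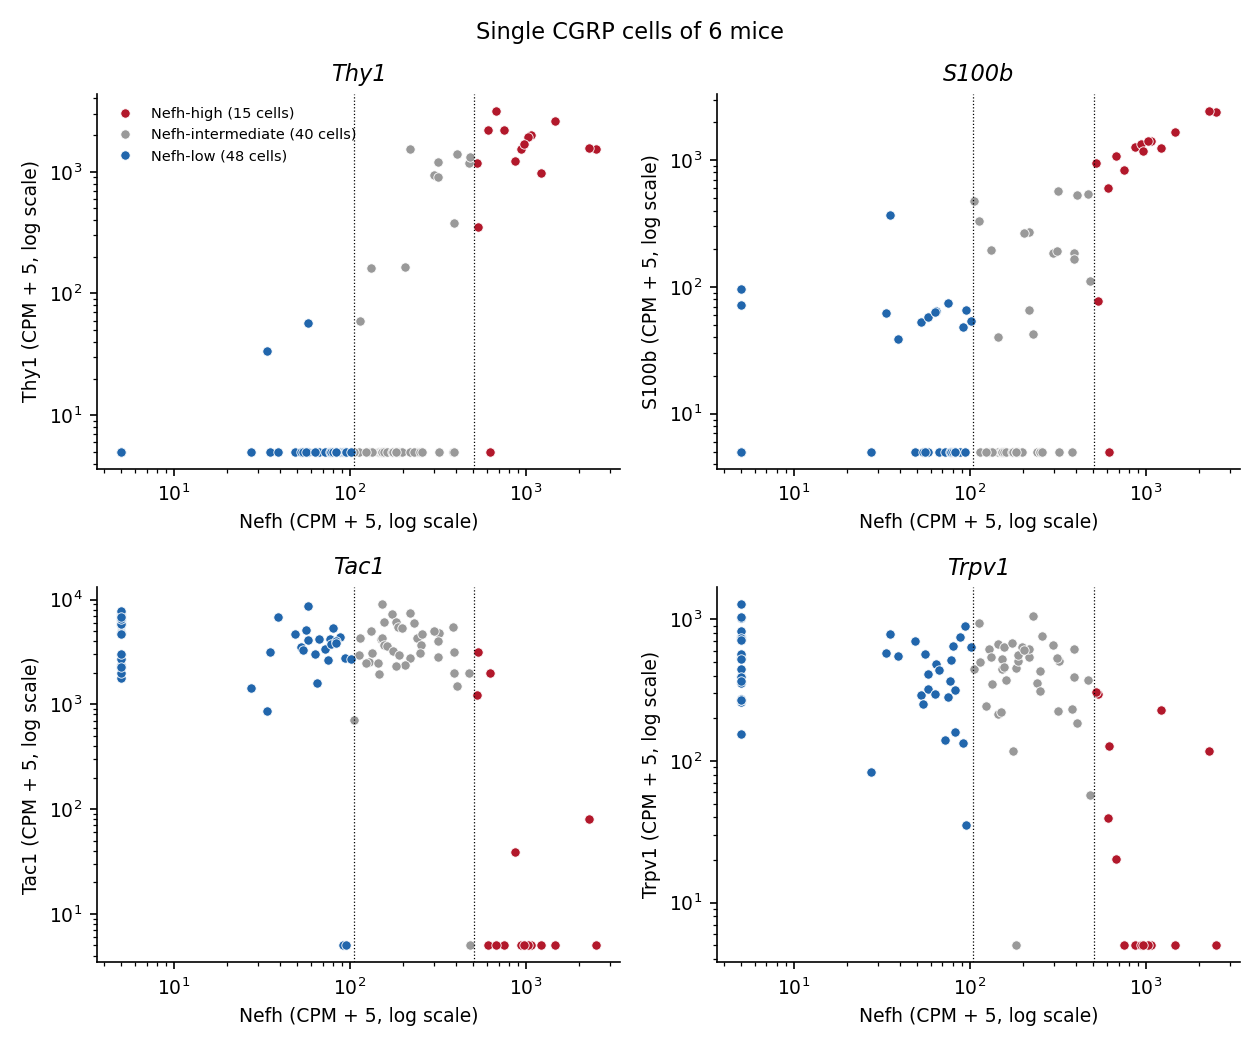
Nefh against Thy1, S100b, Tac1 and Trpv1 in each CGRP cell, as CPM + 5 on log axes; dotted lines mark the limits of 100 and 500 CPM of Nefh that made the classes. Most Nefh-intermediate cells lie beside the Nefh-low cells in Tac1 and Trpv1, and 3 of the 15 Nefh-high cells lie above 1000 CPM of Tac1.

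Receptors for growth factors were mixed. Of 11 tested, 2 rose, among them Ngfr, and 2 fell, Ret and Gfra3. Ngfr, the low-affinity neurotrophin receptor, averaged 1633 against 444 CPM in Blue, 1811 against 130 in Control2, 1047 against 305 in Control and 1644 against 423 in Red (2.81 ± 0.33, adjusted p 5.59e-15, 0.000502 with 4 mice).

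Of 15 tested genes for TRP, Piezo, ASIC and P2X channels, 4 rose and 1 fell, Trpv1. Piezo2, the main channel of touch, averaged 656 against 106.4 CPM in Blue, 690 against 116.4 in Control2, 518 against 0 in Control and 795 against 118.6 in Red (2.54 ± 0.39, adjusted p 2.83e-08, 0.00243 with 4 mice). Ano3, of the anoctamin family, averaged 528 against 56.2 and 242 against 0 CPM in Blue and Control2 (4.38 ± 0.62, adjusted p 6.32e-10, 0.00133 with 4 mice). Asic3, an acid-sensing channel, and P2rx3, an ATP receptor, rose with 2 mice (2.87 and 3.34) but had adjusted p values of 0.191 and 0.184 with 4 mice. Asic3 averaged 329 and 433 CPM in the Nefh-high cells of Blue and Control2 but 35.3 CPM in the cell of Red.

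Receptors that curb pain neurons were few. Of 8 tested, Npy2r rose and Npy1r fell. Npy1r, the Y1 receptor for neuropeptide Y, was listed at 0 in the Nefh-high cells of Blue, Control2 and Red and averaged 84.8 CPM in Control, against 163, 372, 364 and 373 CPM in their Nefh-low cells. The fall passed both fits (adjusted p 2.13e-07, 0.00103 with 4 mice). For the mean over Blue and Control2 it is at least 26.9-fold, against a floor of 3 counts in the 301574 pooled counts of the Nefh-high cells. The opioid receptor gene Oprm1 was low in both classes, at 0 against 12.1 CPM in Blue and 10.2 against 50.1 CPM in Control2, and did not pass (adjusted p 0.663). Of 10 glutamate and GABA receptor genes, 0 rose and 1 fell, Gria1 (-2.30, adjusted p 0.0342, 0.352 with 4 mice).

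Genes of transmitter release changed in both directions. Of 20 tested, 6 rose and 2 fell. Sv2b, a synaptic vesicle protein, was listed at 0 in the Nefh-low cells of Blue and Control2 and averaged 254 and 176 CPM in their Nefh-high cells (5.44 ± 0.96, adjusted p 2.42e-06, 0.000368 with 4 mice). The complexins Cplx1 and Cplx2, which clamp vesicles before fusion, averaged 1002 against 159 and 854 against 98.8 CPM in Blue, with differences of 2.13 and 3.51 (adjusted p 0.000419 and 0.000193 with 4 mice). Vamp1, a SNARE protein of vesicles, averaged 350 against 78.4 CPM in Blue and 339 against 0 CPM in Control2 (4.10, adjusted p 0.0172 with 4 mice). Snap25 rose by less (0.97, adjusted p 0.0453, 0.00263 with 4 mice) and Syn2 rose with 2 mice only (adjusted p 0.0423, 0.203 with 4 mice). The synaptotagmins Syt4 and Syt9 fell. Syt4, which sits on peptide vesicles, averaged 361 against 1434 CPM in Blue, 529 against 1844 in Control2, 452 against 1525 in Control and 407 against 1584 in Red (-1.88 ± 0.31, adjusted p 3.1e-07, 4.2e-05 with 4 mice).

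Of 23 tested transcription factors of sensory lineages, 3 rose and 2 fell. Hopx, a homeodomain protein without DNA binding of its own, averaged 1221 against 29.4 CPM in Blue and 556 against 77.9 CPM in Control2 (3.96 ± 0.43, adjusted p 3.22e-17, 3.39e-05 with 4 mice). Onecut2 (3.07) and Casz1 (3.46) rose, with adjusted p values of 0.00178 and 0.00482 with 4 mice. Besides Runx1, the cofactor gene Ldb2 fell (-1.94, adjusted p 0.0437, 0.0279 with 4 mice, the latter lost without Blue, Control2 or Red).

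Of 18 tested adhesion and guidance genes, 5 rose and 1 fell. Sema5a, a semaphorin, averaged 297 against 8.93 CPM in Blue and 322 against 0 CPM in Control2 (5.23 ± 0.76, adjusted p 2.87e-09, 0.00034 with 4 mice). The semaphorin receptors Nrp1 and Nrp2 averaged 524 against 175 and 178 against 17.2 CPM in Blue, with 4-mouse adjusted p values of 0.0199 and 0.00531. Chl1 rose with both fits (1.56, adjusted p 0.0123 with 4 mice, 0.0662 without Control2), and Ncam1 fell with 2 mice only (adjusted p 0.163 with 4).

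**Figure D4:**
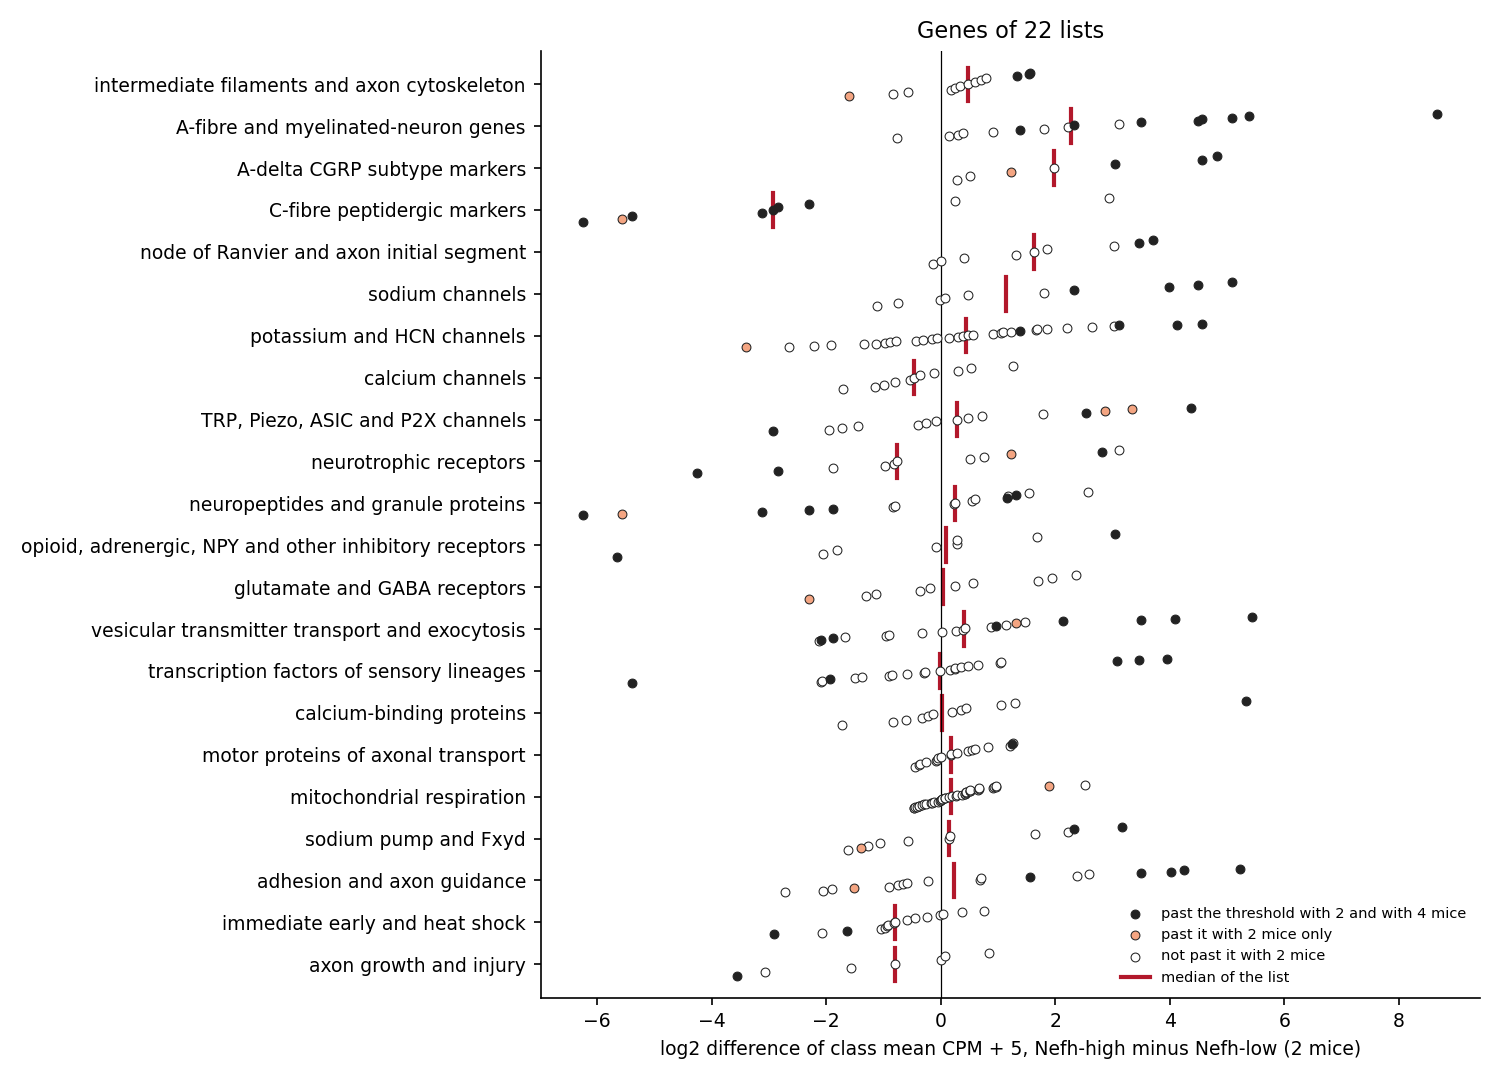
Log2 difference (Nefh-high minus Nefh-low, class mean CPM + 5, Blue and Control2) of each tested gene in 22 lists, with the list median as a red bar (2.28 for the A-fibre list, -2.93 for the C-fibre peptidergic list). Black points passed the threshold with 2 and with 4 mice, orange points with 2 mice only, and white points did not pass with 2 mice.

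Among the remaining lists, that of neuropeptide and granule proteins held the most called genes. Of its 16 tested genes 2 rose and 5 fell, against 2 and 4 called with 4 mice. Those that fell were Tac1, Adcyap1, Gal and Cartpt, described above, and Pam, an enzyme that amidates peptides, which averaged 88.4 against 359 CPM in Blue and 146 against 518 CPM in Control2 (-1.88, adjusted p 0.000564, 0.0118 with 4 mice, the latter lost without Blue or Control2). Those that rose were Nmb (1.16, adjusted p 0.0032 with 4 mice) and Cpe (1.31, adjusted p 0.0208 with 4 mice, lost without Control2 or Red). In the sodium pump list, Atp1b1, a pump subunit, averaged 2194 against 266 CPM in Blue, 1534 against 150 in Control2, 1619 against 508 in Control and 2121 against 196 in Red (3.16 ± 0.33, adjusted p 1.27e-18, 5.01e-05 with 4 mice). Fxyd7, a small regulator of the pump, rose too (2.34, adjusted p 0.000688 with 4 mice), and Fxyd2 fell with 2 mice only (adjusted p 0.0311, 0.0545 with 4 mice). Of 42 genes of mitochondrial respiration, all tested, 1 rose (Cyc1, adjusted p 0.0473, and 0.601 with 4 mice), with a median of 0.17. That count is near the 2.02% of all genes tested that were higher. The 4-mouse fit called 2 others higher, Cox5a (1.08, adjusted p 0.0184, lost without Blue or Control) and Ppargc1a (2.90, adjusted p 0.0494, lost without any 1 of the 4 mice). Of 18 motor protein genes 1 rose, Kif3a (1.24), for which 63.6% of low values were fractions of a count, so its value is uncertain. Of 12 calcium-binding genes 1 rose, Vsnl1, which was counted in 0 of 48 Nefh-low and 12 of 15 Nefh-high cells. The immediate early genes Jun (-2.91, adjusted p 6.54e-05 with 4 mice) and Fos (-1.64, adjusted p 0.0279 with 4 mice, lost without Blue or Control2) fell among 16 genes of early response and heat shock. Of 7 genes of axon growth and injury, Sox11 fell (-3.56, adjusted p 0.000672 with 4 mice). Gap43, of the same list, did not pass with 2 mice (0.84, adjusted p 0.143) and passed as higher with 4 (0.88, adjusted p 0.00939, 4 of 4 mice), a call lost without Red. Th, a marker of touch neurons, averaged 299 against 15.3 CPM in Blue, 76.4 against 0 in Control2, 513 against 47.3 in Red and 4.51 against 0 in Control. It rose (3.96, adjusted p 0.0273 with 4 mice), but few cells carried these means. Th was at 0 in 9 of the 15 Nefh-high cells, those of Control6 among them, and at 100 CPM or more in 3.

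The largest further differences fell outside the lists. Cpne6, a calcium-dependent membrane-binding protein, was listed at 0 in the Nefh-low cells of Blue, Control2 and Control and averaged 474, 404 and 503 CPM in their Nefh-high cells (6.47 ± 0.80, adjusted p 4.09e-13, 0.000146 with 4 mice). S100a16, a calcium-binding protein of the S100 family, averaged 420 against 2.59 CPM in Blue and 205 against 0 CPM in Control2. The protease inhibitor genes Serpinb1a and Serpinb1b averaged 345 and 239 CPM in the Nefh-high cells of Blue, against 9.24 and 1.31 CPM in Nefh-low cells. For the mean over Blue and Control2, Ly6h and Chp2 were at least 23.8-fold and 24.1-fold higher, against a floor of 3 counts. That floor pools the Nefh-low counts of both mice, most of them from Blue, so these bounds do not hold for Control2 alone. All 6 passed the 4-mouse fit, with adjusted p values between 0.000146 and 0.00427.

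Among the largest falls, Gpx3, a secreted glutathione peroxidase, averaged 0 against 461 CPM in Blue, 7.21 against 460 in Control2, 9.08 against 1762 in Control and 0 against 488 in Red (-5.90 ± 0.70, adjusted p 4.5e-14, 4.32e-06 with 4 mice). Its mean of 288 CPM in the Nefh-high cells of Control6 stood apart from the others. Car8 was counted in 0 of 15 Nefh-high cells, which allows a share of up to 20%, and in 41 of 48 Nefh-low cells. For the mean over Blue and Control2 it was at least 18.5-fold lower (adjusted p 0.000218 with 4 mice). Cd44, the hyaluronan receptor, averaged 0 against 497 and 27.6 against 487 CPM in Blue and Control2 (-5.28, adjusted p 0.00018 with 4 mice). Aqp1, a water channel, averaged 0 against 935 and 115.4 against 625 CPM (-4.97, adjusted p 0.00182 with 4 mice). Ptprt, Slc7a7 and Celf6 fell in both fits. Samsn1 fell with 2 mice (adjusted p 4.31e-06) but not with 4 (adjusted p 0.301), since Control moved the other way.

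Cells with intermediate Nefh are described without a test. They held a median of 19817 counts, close to the Nefh-low cells. A count of Thy1 was found in 11 of 40, of S100b in 16 and of Scn8a in 15, while 39 held Tac1 and 39 held Trpv1. Pooled over cells, Tac1 averaged 3851 CPM against 4069 in Nefh-low and 429 in Nefh-high cells. Thy1 averaged 230 CPM against 1.69 and 1608 CPM. In both genes the intermediate mean lay nearer to the Nefh-low mean.

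The Nefh-high cells differed among themselves in Tac1. This split was seen in the data and is given without a test. Tac1 was at 3124 CPM in 1 cell of Control, 1233 in 1 cell of Control2 and 1972 in 1 cell of Control6, and at 75.6 CPM or less in the other 12 cells. The 3 cells held 527, 519 and 616 CPM of Nefh, near the limit of the class, while the other 12 held 603 to 2500 CPM. Thy1 was at 345, 1168 and 0 CPM in these 3 cells and at 963 CPM or more in the other 12. S100b was at 72.7, 941 and 0 CPM in the 3 and at 603 CPM or more in the 12. Adcyap1 was at 562 to 1602 CPM in the 3 and at 0 to 494 CPM in the 12. Fam19a1 was at 0 in all 3 and at 81.4 CPM or more in the 12, and Trpv1 was at 123.2 to 303 CPM in the 3 and at 0 in 8 of the 12. The cell of Control6 held 8117 counts, the lowest depth of the class, against 40507 counts or more in the 12.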

How the data were processed

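Single tdTomato-positive cells were sequenced as separate libraries, and 394 of the 400 labelled cells had a column in the 4 run tables; 6 were not analysed here. STAR 2.7.3a and mm10 are named in the submitters' processing notes, with no parameters. The authors deposited a signal per gene and cell, equal to a count times a factor of the cell whose origin no source used here states. Whole reads were recovered in 252 columns and not claimed in 142, whose values were rounded wherever counts were used. No 2 columns were identical. The 26 rows with dates in place of symbols, among 24781, and the ribosomal RNA gene Rn45s were left out, and values were scaled to CPM per cell. Whether counting used the strand is not stated, so genes that share exons with a neighbour (among those named: Ano3, Atp1b1, Cacna2d2, Casz1, Cntnap1, Cox5a, Hopx, Jun, Kcnab1, Kcnk3, Ncam1, Nefl, Nefm, Nmb, Nrp1, Oprm1, P2rx3, Pam, Runx1, Scn9a, Slc7a7, Sv2b, Syn2 and Syt4) are uncertain to that degree. Doublets were not called. Positions are from GENCODE vM21 on GRCm38.

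Class means per mouse, as log2(CPM + 5), were compared with limma 3.58.1 in R 4.3.3. Mouse entered the model as a block and the prior variance followed the level. Genes under a mean of 10 CPM were left out, and p-values were adjusted over all other genes by Benjamini-Hochberg. The pseudocount makes differences of low genes smaller than their ratio. The planned minimum of 3 cells per mouse and class fell to the 2 foreseen as its replacement. On simulated data this 2-mouse fit called unchanged genes too, and large changes were found more often than small ones, increases more often than decreases. Each mouse is 1 replicate, and cells are not. Whether the mice were littermates is not given. Alternatives were edgeR 4.0.16 and DESeq2 1.42.0 on recovered counts, other filters, pseudocounts, averaging, Nefh limits, thinned cells, no block, single runs and mice left out. Genes were named by rule: the 12 largest differences each way among called genes of at least 20 CPM with 1 direction in both mice, up to 4 genes of smallest p and all called genes per list, and 22 given genes. The members and lists were chosen with earlier results of these data known. In addition, cells were read at 5000 thinned counts, and floors are 3 counts in the pooled counts of a class over Blue and Control2. Values of some list members are not reported here.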

Additional observations from a re-analysis of the deposited data

Results flagged for a closer look

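Over the 4 mice with at least 2 Nefh-high cells (Blue, Control, Control2 and Control6), 9 genes (7.96% of those looked at) had 1 mouse that stood far from the other mice in the Nefh-high class mean, by a gap above 0.829 of the whole range. Chance alone flags about 1 in 20 such groups. Control6 stood apart in 4 genes that were lower in the Nefh-high cells of the other mice: Adcyap1 at 608 CPM against 243 to 289, Gpx3 at 288 against 0 to 9.08, Ptprt at 329 against 0 to 30.1 and Slc7a7 at 123.2 against 0 to 19.4 CPM. Of its 3 Nefh-high cells, 1 held 1972 CPM of Tac1 and 8117 counts. Control6 had no Nefh-low cell and entered neither the 2-mouse nor the 4-mouse fit. Blue stood apart in 3 genes: Cplx1 at 1002 CPM against 587 to 629, Hcn2 at 178 against 57.5 to 68.1 and Tubb4a at 1032 against 510 to 578 CPM. Control2 stood apart in Gap43, at 1157 CPM against 1000 to 1019, and Control in Sox11, at 59.96 CPM against 15.9 to 22.5.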

How the results depend on the processing

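The 288 calls were 2.02% of genes tested as higher and 1.14% as lower in Nefh-high cells. A level filter of 30 CPM or none, pseudocounts of 1 or 20 CPM, Rn45s kept in the totals, cells of at least 2000 genes, edgeR, and the fit with no replicate block (235 calls) gave 229 to 288 calls. The same values by calls, percent higher and percent lower were 39, 0.33% and 0.099% by DESeq2, 40, 0.303% and 0.182% with thinned cells, and 151, 1.19% and 0.445% with Nefh of at least 300 against under 300 CPM. Averaging of log2 values gave 0.572% lower. Where 1 cell sufficed, they were 40, 0.257% and 0.21% with thinned cells, 574, 3.9% and 2.34% by edgeR, 170, 1.26% and 0.604% in runs 2 to 4, and 150, 1.21% and 0.487% with Nefh of at least 1000 against under 50 CPM. Blue and Red of run 1 gave 457 calls, 2.39% lower. Leaving out 1 of the 4 mice gave 197 to 296 calls, 1.3% to 1.9% higher and 0.738% to 1.33% lower. The share of higher calls was smallest without Control2 (1.3%) and that of lower calls without Blue (0.738%).

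Directions reversed for Fxyd2 without Blue, with at least 3 cells per class and in runs 2 to 4 (0.33, against -3.10 without Control2), for Chl1 in thinned cells (-0.51), and, where 1 cell sufficed, for Nmb in thinned cells (-0.18) and for Calcb (-1.54, which passed) and Cyc1 (-0.72) in run 1. The cause was not tested. At least 5 cells per class, Nefh of at least 1000 CPM at 2 cells per class, and cells under 1000 CPM of glial markers could not be fitted for want of cells. The 2-mouse comparison with 1 mouse or 1 run alone gives values with no test. At 5000 thinned counts a gene of low level is at the limit of detection.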

Other observations

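Some genes outside the lists were singled out after their values were seen. A pair of relatives of the fibroblast growth factors that stay inside the cell and bind sodium channels went opposite ways. Fgf12 averaged 2542 CPM in Nefh-high against 155 CPM in Nefh-low cells of Blue, 950 against 76.1 in Control2, 1782 against 101.7 in Control and 2192 against 103.8 in Red (3.99 ± 0.20, SE over 4 mice, adjusted p 2.12e-07). Fgf13 averaged 282 against 1484 CPM in Blue, 551 against 1067 in Control2, 438 against 1576 in Control and 212 against 1479 in Red (-1.98 ± 0.25, adjusted p 0.000672). Both kept their call when cells were thinned to 5000 counts (adjusted p 1.66e-07 and 0.000623). The transcription factor genes Nfia and Nfib were higher in Nefh-high cells of all 4 mice, with differences of 3.97 and 2.14 and adjusted p values of 0.000565 and 0.00233, but neither passed with thinned cells (adjusted p 0.871 and 0.0922). The nuclear noncoding RNA Malat1 averaged 2857 against 9173 CPM in Blue, 6932 against 22117 in Control2, 6254 against 18336 in Control and 4489 against 11197 in Red (-1.56 ± 0.13, adjusted p 2.8e-05).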
